A study of Mus musculus with 14 samples.

Results

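The cells described here are those that the study sorted from mouse embryos at embryonic day 10 as passing from endothelium to blood, called EHT cells. They were taken by their plate, as every cell of the E10 table that the column names put on the EHT plates p24, p10 or p12, and no measured value chose them. They numbered 191 of the 546 cells in the table (35.0%), with 64 cells on p24, 40 on p10 and 87 on p12. The study's own E10 map shows fewer EHT cells than the table, and all cells of the table were used. The study followed the making of blood stem cells in the embryonic aorta by single-cell RNA sequencing with CEL-Seq, on aorta-gonad-mesonephros regions (AGM) from embryos of 28 to 32 somite pairs. All 3 aortic populations sorted on Cdh5 lacked the Gfi1b reporter: the EHT cells were Gfi1+ and c-kit+, the 98 haemogenic endothelial (HE) cells Gfi1+ and c-kit-, and the 43 non-haemogenic endothelial (non-HE) cells negative for both. They came from ICR embryos with the genotype label Gfi+/tomato/ Gfi1b+/GFP, which carry fluorescent reporters in both Gfi genes. The 73 cells of intra-aortic haematopoietic clusters (IAHC; c-kit+ CD31+, kept by the authors for expressing Gpr56 and few transcripts of non-IAHC genes) and the 141 c-kit+ progenitors of the yolk sac came from wild-type C57BL/6 embryos of the same age. Each population is a single deposited sample, no population was treated, and the strain and reporter alleles cannot be told apart from the population wherever EHT cells are set beside IAHC or yolk sac cells. The names of the p24 columns and of both HE plates give day E10.5 and those of p10 and p12 give late E10, while the non-HE columns are named early E11 under an E10 label.

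During the endothelial-to-haematopoietic transition, a flat endothelial cell in the ventral wall of the dorsal aorta rounds up, loosens its junctions and enters a cluster of blood cells attached to the wall. The change depends on Runx1, whose targets Gfi1 and Gfi1b repress endothelial genes, and the cells that leave the endothelium include precursors of the blood stem cells that later seed the fetal liver. A cell in transit carries transcripts of both identities, so its place between endothelium and cluster is read from which genes have gone up and which still linger.

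Each of the 6 genes given as markers of the EHT cells was present in the EHT cells of every plate. Levels are in transcripts per cell out of a fixed total of 3000, and intervals in brackets are exact 95% intervals that cover counting error only. Myb, a transcription factor needed for definitive blood formation, stood at 0.0233 in non-HE, 0.0102 in HE, 0.796 (0.674 to 0.933) in EHT, 1.16 in IAHC and 1.25 in yolk sac cells. A single Myb transcript was found over the 98 HE cells, against 91 of the 191 (47.6%) EHT cells with the gene. Ptpn6, a phosphatase that dampens receptor signalling in blood cells, was at 0 in non-HE, 0.0408 in HE, 0.738 (0.621 to 0.871) in EHT, 0.849 in IAHC and 0.482 in yolk sac cells. Ifitm1, an interferon-induced transmembrane protein, was at 0.0233 in non-HE, 0.153 in HE, 1.88 (1.70 to 2.09) in EHT, 2.36 in IAHC and 0.319 in yolk sac cells. Each of these 3 genes separated EHT and IAHC cells from both endothelial populations, and the EHT plates ranged no lower than 0.5 for Myb, 0.700 for Ptpn6 and 1.54 for Ifitm1. Gpr56, an adhesion receptor of blood stem cells, was graded instead, at 0.0698 in non-HE, 0.959 in HE, 3.04 (2.80 to 3.30) in EHT, 4.178 in IAHC and 2.42 in yolk sac cells, and was seen in 174 of the 191 (91.1%) EHT cells. Mycn, a transcription factor of the Myc family, behaved differently from the rest: its level was 0.0465 in non-HE, 0.316 in HE, 1.52 (1.35 to 1.70) in EHT, 0.151 in IAHC and 0.0638 in yolk sac cells. Mycn was thus high in EHT cells alone, at 1.47, 1.48 and 1.58 on p24, p10 and p12. Gfi1, which is part of the gate through its reporter, was at 0.0233 in non-HE, 0.439 in HE, 0.874 (0.747 to 1.02) in EHT, 0.534 in IAHC and 0.0213 in yolk sac cells. At least 3 of the 6 markers were detected in 164 of 191 EHT cells (85.9%, 80.1 to 90.5%), in 61 of 73 IAHC cells, in 46 of 141 yolk sac cells, in 15 of 98 HE cells and in 0 of 43 non-HE cells. In the EHT cells a median of 4 markers was detected, and 4 cells had none. These counts were in part fixed by selection, since Gfi1 is in the gate of the EHT cells and Gpr56 chose the IAHC cells.

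**Figure D1:**
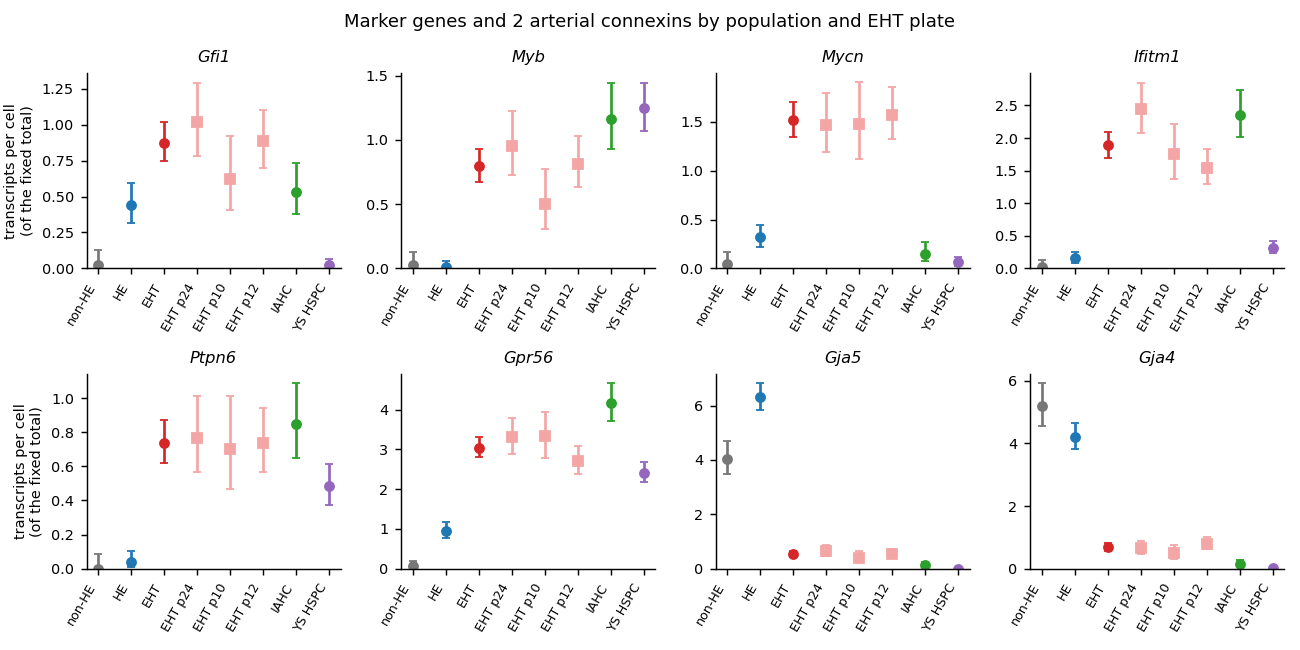
Transcripts per cell (of 3000) for the 6 marker genes and the arterial connexins Gja5 and Gja4 in each population (circles) and in each EHT plate (pale squares), with exact 95% counting intervals as bars. Mycn stands at 1.52 in EHT against 0.316 or less elsewhere, while Gja5 is at 6.32 in HE and 0.539 in EHT.

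Against HE cells, their nearest neighbour in the gate, EHT cells were past 2-fold higher at fewer genes than they were lower. Members of the blood lists were among the higher genes and members of the arterial, endothelial and matrix lists among the lower, beside many genes of no list. Of 1566 genes with at least 0.5 transcripts per cell on either side, 66 were at least 2-fold higher in EHT (4.21%) and 157 at least 2-fold lower (10%), or 14.2% in either direction. The median log2 ratio over all of them was 0.05. Each EHT plate was also set against the pooled HE cells, and the pooled EHT cells against each HE plate. In all of these, 26 of the 66 and 103 of the 157 genes stayed past 2-fold in the same direction. With 1 sample per population no test between populations was possible, so each count is of genes past 2-fold and nothing more. A gene that reaches 0.5 on one side alone can only be counted as higher on that side, so sums over all members of a list, which need no such level, are given beside the main list counts. With a pseudocount of 0.5 the counts were 19 higher and 46 lower, and with a minimum level of 0.2 they were 140 and 282.

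A few haematopoietic transcription factors stood far above HE. Of 18 members of that list measured against HE, 4 were past 2-fold higher and 0 lower, with a median log2 ratio of 0.26 against 0.05 over all genes tested: Myb, Sfpi1, Mycn and Runx1. Myb was 78.0-fold (13.8 to 3100) over HE, a ratio that rests on 1 HE transcript. Sfpi1, which encodes the myeloid and lymphoid factor PU.1, was at 0 in non-HE, 0.0816 in HE, 0.691 (0.578 to 0.820) in EHT, 0.836 in IAHC and 0.390 in yolk sac cells, or 8.47-fold (4.17 to 20.02) over HE. Mycn was 4.80-fold (3.31 to 7.20) over HE. Runx1 itself stood at 0.0233 in non-HE, 0.245 in HE, 0.733 (0.617 to 0.865) in EHT, 0.616 in IAHC and 0.468 in yolk sac cells, 2.99-fold (1.93 to 4.83) over HE, and was detected in 98 of the 191 (51.3%) EHT cells. Several factors of this list that HE cells already held did not pass the fold: Lmo2 was at 0.704 in HE and 0.785 in EHT, Tal1 at 0.510 and 0.435, Fli1 at 0.541 and 0.440, and Gata2 at 0.816 and 0.639. Ikzf2, Etv6, Gfi1 and Meis1 lay under the fold at log2 ratios of 0.94, 0.92, 0.85 and 0.71. Of the 18 factors 14 had a ratio above 0, and the list of 26 summed to 8.54 in HE and 14.5 (14.0 to 15.1) in EHT. Hlf, a factor of blood stem cells under the level needed to be counted, was at 0, 0.0816, 0.497, 0.397 and 0.0426 in non-HE, HE, EHT, IAHC and yolk sac cells in that order, and Gfi1b was at 0, 0, 0.131, 0.123 and 0.298.

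Signalling and surface genes of blood cells followed. Of 7 haematopoietic signalling genes measured, 4 were higher past 2-fold (Ptpn6, Coro1a, Gpr56 and Arhgdib) and 0 lower, with a median log2 ratio of 1.09. Ptpn6 was 18.1-fold (6.91 to 67.3) over HE. Coro1a, an actin-binding protein of leukocytes, was at 0 in non-HE, 0.143 in HE, 1.01 (0.873 to 1.16) in EHT, 2.48 in IAHC and 1.71 in yolk sac cells, 7.07-fold (4.12 to 13.2) over HE, while Gpr56 was 3.17-fold (2.55 to 3.99) over HE. Over all 30 genes of the list the sum was 2.07 in non-HE, 5.17 in HE, 11.5 (11 to 11.97) in EHT, 18.2 in IAHC and 18.8 in yolk sac cells. Kit, the only cytokine receptor gene measured against HE of 19, was 4.855-fold (3.23 to 7.58) higher, but it is the gate that parts the EHT cells from HE. Of 7 stem and progenitor surface genes 3 were higher (Kit, Gpr56 and Cd47) and Esam was lower, with a median of 0.41. Among the interferon-induced transmembrane genes, Ifitm1 alone of 3 passed the fold, at 12.3-fold (7.37 to 22.2), while its neighbours Ifitm2 (2.04 in HE and 1.81 in EHT) and Ifitm3 (1.19 and 1.31) were level. Other blood genes with the largest ratios were Nlrp1a, an inflammasome sensor (0.398 in HE and 1.96 in EHT), Lgals9, which encodes galectin-9 (0.143 and 0.859), Alox5ap of leukotriene synthesis (0.133 and 0.780) and the adaptor Dok2 (0.0714 and 0.508). These 4 were low in both HE plates and present on all 3 EHT plates. Phgdh, the first enzyme of serine synthesis, was at 0.140 in non-HE, 0.173 in HE, 0.932 (0.800 to 1.08) in EHT, 1.66 in IAHC and 2.16 in yolk sac cells. It was thus low in both endothelial populations and higher in EHT, IAHC and yolk sac cells, of which the last 2 differ by strain as well.

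The genes lower in EHT were led by those of arteries. All 13 arterial and Notch genes measured had a ratio below 0, and 12 of them passed 2-fold, with a median log2 ratio of -1.88. Gja5, the connexin of arterial gap junctions, stood at 4.05 in non-HE, 6.32 in HE, 0.539 (0.440 to 0.654) in EHT, 0.123 in IAHC and 0 in yolk sac cells, 11.7-fold (9.49 to 14.6) lower than HE. On the 3 EHT plates it was at 0.641, 0.400 and 0.529, and on the HE plates at 7.51 and 5.59, so that no plate of one population came near the other. Gja4, a second arterial connexin, was at 5.21 in non-HE, 4.21 in HE, 0.686 (0.573 to 0.814) in EHT, 0.164 in IAHC and 0.0213 in yolk sac cells, 6.14-fold (5.04 to 7.54) lower. The ligands, receptor and targets of Notch that were measured were lower. Jag1 was at 0.837 in HE and 0.120 in EHT, Dll4 at 0.827 and 0.225, and Notch4 at 0.980 and 0.209. Hey1 was at 1.28 and 0.204, and Hey2 at 0.5 and 0.0628. These Notch genes reached the level measured in HE alone and could only be counted as lower. Other Notch genes of the list, such as Notch1 and Hes1, did not reach it. Sox17, a factor of arterial and haemogenic endothelium, was at 1.95 in non-HE, 1.65 in HE, 0.236 (0.172 to 0.315) in EHT, 0.0685 in IAHC and 0 in yolk sac cells, 7.02-fold (5.02 to 9.99) lower than HE. Only Vegfc, a growth factor, stayed short of the fold, at 1.06 in HE and 0.534 in EHT. Summed over its 20 genes, the list held 29.5 in non-HE, 26.4 in HE, 5.51 (5.18 to 5.85) in EHT, 1.68 in IAHC and 0.277 in yolk sac cells.

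General endothelial genes were lower too, though less steeply. Of 22 measured, 15 passed 2-fold lower, 0 higher, and the median log2 ratio was -1.26, with every gene below 0. Plvap of the fenestral diaphragm was at 5.40 in HE and 1.39 (1.23 to 1.57) in EHT, Ramp2 of the adrenomedullin receptor at 6.14 and 1.87 (1.68 to 2.07), and the tight junction gene Cldn5 at 2.04 and 0.654 (0.545 to 0.780). Cdh5, which the gate required on the surface of all 3 aortic populations, was at 7.30 in non-HE, 4.59 in HE, 2.10 (1.90 to 2.32) in EHT, 1.23 in IAHC and 0.0284 in yolk sac cells and was still detected in 144 of the 191 (75.4%) EHT cells. Sox18, Tie1, Eng, Cd93, Egfl7, Ecscr and Gpr116 stayed within 2-fold. The endothelial list as a whole held 65.1 in non-HE, 49.5 in HE, 18.7 (18.1 to 19.3) in EHT, 13.2 in IAHC and 1.85 in yolk sac cells, so the EHT sum was nearer to that of IAHC than of HE.

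Matrix and flow genes were lower along with the vessel genes. Of 13 extracellular matrix genes, 12 were past 2-fold lower (median -1.56), among them Nid1 of the basement membrane (1.49 in HE and 0.251 in EHT), Sparcl1 (0.806 and 0.0785) and Col4a2 (3.45 and 0.796). Fibronectin (Fn1) was the exception, at 10.4 in non-HE, 11.4 in HE, 5.90 (5.56 to 6.26) in EHT, 2.75 in IAHC and 0.0567 in yolk sac cells, and remained in 180 of the 191 (94.2%) EHT cells. Several of the 12, Nid1 and Sparcl1 among them, reached the level measured in HE alone and could only be counted as lower. Summed over its 23 genes, the matrix list held 36.8 in HE and 13.7 (13.2 to 14.2) in EHT. The list for caveolae, flow and hypoxia summed over its 13 genes to 7.30 in HE and 1.89 (1.70 to 2.10) in EHT, and its 5 measured genes, which reached the level in HE alone, passed 2-fold, with Epas1, a hypoxia-inducible factor of endothelium, at 2.38 in HE and 0.440 in EHT (5.41-fold, 4.20 to 7.02) and the flow-responsive Klf2 at 0.949 and 0.288. Of 6 genes for BMP, TGF-beta and Id proteins, 5 passed (median -1.12), led by Ltbp4 and Id3, the latter at 2.90 in HE and 0.874 in EHT. Ltbp4, Smad6 and Bmpr2 reached the level in HE alone and could only be counted as lower. The list summed over its 16 genes to 9.09 in HE and 3.82 (3.55 to 4.11) in EHT. The largest ratios below 0 outside these lists were those of Sat1 of polyamine breakdown (2.93 in HE and 0.424 in EHT), Stmn2 of the stathmin family (1.23 and 0.147), Tmem100 (0.704 and 0.0524), the protease Ctsh (2.05 and 0.314), the vascular factor Foxc2 (0.786 and 0.0838) and Anxa2 (1.14 and 0.173). Each of these 6 was lower on every EHT plate than on either HE plate, although 11 of the 33 Anxa2 transcripts of the EHT cells lay in 1 cell.

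Among growth genes, those of ribosome biogenesis differed most from HE. All 15 ribosome biogenesis genes measured had a ratio above 0 and 6 passed 2-fold (Dkc1, Gnl3, Ncl, Nop56, Nop58 and Mybbp1a), with a median log2 ratio of 0.85. Nucleolin (Ncl) was at 1.30 in non-HE, 1.98 in HE, 4.45 (4.16 to 4.76) in EHT, 5.81 in IAHC and 11.6 in yolk sac cells, 2.25-fold (1.92 to 2.64) over HE, and the list summed to 9.72 in non-HE, 16.3 in HE, 31.4 (30.6 to 32.2) in EHT, 34.6 in IAHC and 50.7 in yolk sac cells. Glycolytic genes had 0 of 9 past the fold, with 8 above 0 and a median of 0.49. DNA replication genes had 0 of 14 past it (median 0.28), G2 and mitosis genes 0 of 8 (median -0.19), and the cyclin D and inhibitor list 0 of 3 (median 0.12). Mki67, a mark of cycling cells, was at 0.735 in HE and 0.555 in EHT, and Mcm3 of the replication helicase at 0.663 and 1.06. The DNA replication list summed to 12.9 (12.2 to 13.7) in HE and 16.5 (16.0 to 17.1) in EHT, with 11 of 14 genes above 0, and the list of G2 and mitosis to 10.2 (9.59 to 10.9) and 9.64 (9.20 to 10.1). Of 15 actin cytoskeleton genes, 2 passed lower (Marcks and Vim, median -0.18), Vim being at 9.77 in non-HE, 8.96 in HE, 4.31 (4.02 to 4.614) in EHT, 1.62 in IAHC and 0.809 in yolk sac cells. Among 11 genes of the fetal programme and DNA methylation (median 0.12), the methyltransferase Dnmt3b was higher (0.378 in HE and 1.10 in EHT) and the imprinted Mest lower (3.68 and 0.864). Of 5 immediate early genes, which respond to handling, all had a ratio below 0 and Klf2 alone passed 2-fold (median -0.39).

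**Figure D2:**
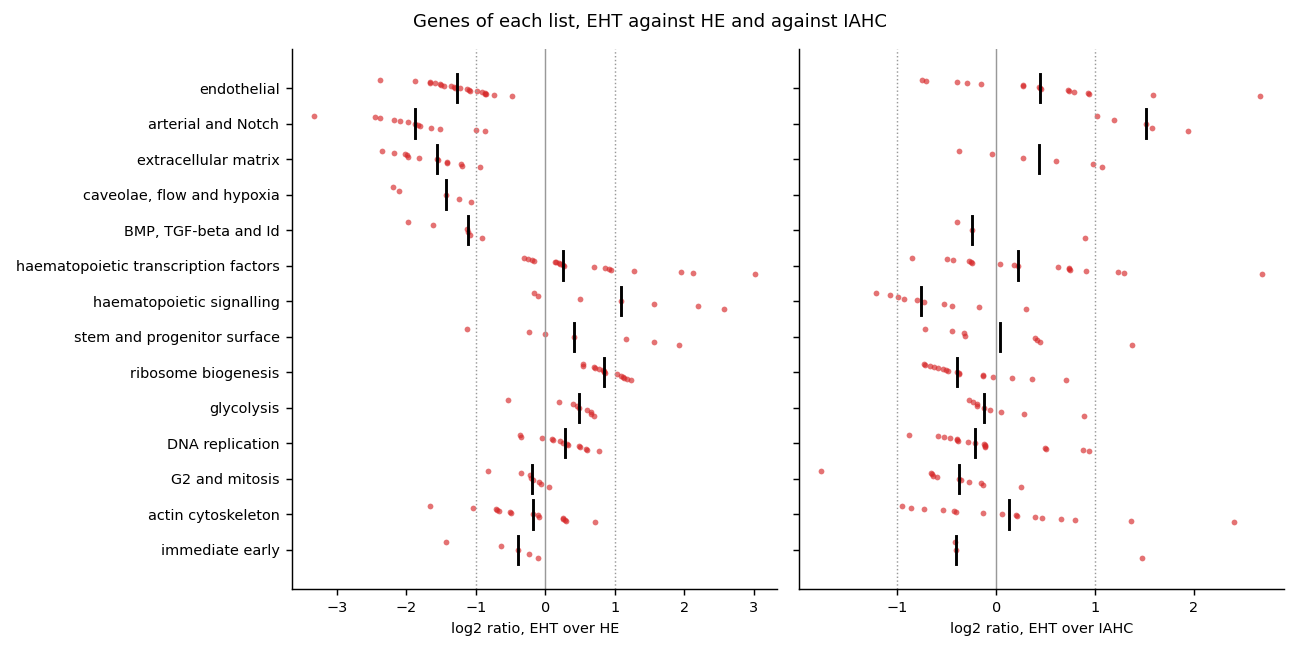
Each point is a gene of a list measured in the comparison, placed by its log2 ratio of transcripts per cell, EHT over HE (left) and EHT over IAHC (right); black bars are list medians and dotted lines mark 2-fold. Against HE the arterial median is -1.88 and the signalling median 1.09, while against IAHC they are 1.52 and -0.77.

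Set beside IAHC cells, the population next in line, EHT cells held more arterial transcripts, which were few in the clusters, and held fewer transcripts of leukocyte signalling and myeloid granule genes. Of 1546 genes measured, 98 were at least 2-fold higher in EHT (6.34%) and 63 lower (4.08%), or 10.4% in all, with a median log2 ratio of -0.11. In every plate pairing, 56 of the 98 and 22 of the 63 stayed past the fold. With a pseudocount of 0.5 the counts were 29 and 11, and with a minimum level of 0.2 the first was 233. Part of both counts were genes that split by strain. Among the 98, 40 (40.8%) were at least 2-fold higher in all 3 ICR populations than in both C57BL/6 populations, and among the 63, 36 (57.1%) were lower in the same way. For these genes the strain, the reporter alleles and the cell population cannot be told apart. Over all 2224 genes at the level in any population, 83 (3.73%) were higher and 39 (1.75%) lower in the ICR populations in this way. Every gene of that split is past 2-fold between EHT and IAHC by definition, so no excess is read from the shares.

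All 5 arterial and Notch genes measured against IAHC were past 2-fold higher in EHT (Nrp1, Gja4, Gja5, Vegfc and Mecom), with a median log2 ratio of 1.52 against -0.11 over all genes. Each of the 5 reached the level measured in EHT alone, so their shared direction comes with that choice, and Vegfc was at 0.175 on p10 beside 0.178 in IAHC. All 5 were also at least 2-fold higher in each ICR population than in both C57BL/6 populations, as was Sox18, so for them strain and population cannot be told apart. Summed over all 20 genes of the list, EHT cells held 5.51 and IAHC cells 1.68 transcripts per cell. Nrp1, a co-receptor of vascular growth factor, was at 4.60 in non-HE, 3.53 in HE, 0.916 (0.786 to 1.06) in EHT, 0.164 in IAHC and 0.00709 in yolk sac cells, 5.57-fold (3.11 to 10.99) over IAHC. Gja5 was 4.37-fold (2.22 to 9.84) and Gja4 4.17-fold (2.31 to 8.28) over IAHC. Of 17 endothelial genes only Clec14a and Sox18 passed (median 0.44). Sox18, an endothelial SOX factor, was at 1.79 in non-HE, 1.11 in HE, 0.623 (0.516 to 0.746) in EHT, 0.0137 in IAHC and 0 in yolk sac cells, 45.5-fold (8.01 to 1811) over IAHC, which held 1 transcript in all. Matrix genes had 1 of 6 higher, Fn1 at 2.14-fold (1.84 to 2.50), with a median of 0.43, and BMP and Id genes 0 of 3 (median -0.24), while none of the genes for caveolae, flow and hypoxia reached the level needed.

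Of 17 blood transcription factors measured against IAHC, 3 were past 2-fold higher in EHT and 0 lower (median 0.22), where 6.34 and 4.08% of all genes were: Mycn at 10.1-fold (5.55 to 20.4), Ikzf2 of the Ikaros family at 3.11-fold (1.84 to 5.59) and Cbfb, the partner of Runx1, at 2.83-fold (1.77 to 4.765). All 3 reached the level measured in EHT alone, so they could only be counted as higher. Ikzf2 was at 0.116 in non-HE, 0.306 in HE, 0.681 (0.569 to 0.808) in EHT, 0.219 in IAHC and 0.121 in yolk sac cells, the highest level of the 5 populations. Myb, Sfpi1 and Runx1 were within 2-fold of IAHC. Signalling genes ran the other way, with 2 of 10 lower (Coro1a at 2.45-fold, 1.99 to 3.02, and Arhgdib at 2.25-fold, 1.76 to 2.87), 0 higher and a median of -0.77, although Rac2 and Gmfg reached the level measured in IAHC alone. Of 4 myeloid granule genes, Mpo (0.230 in EHT and 0.589 in IAHC) and Prtn3 (0.251 and 0.671) were lower (median -0.70), again with the level reached in IAHC alone, and of 2 cytokine receptors the receptor Tnfrsf1a was (0.298 and 0.877; list median -0.44). Procr, a surface marker of blood stem cells that is also made by arterial endothelium, was at 0.721 in non-HE, 1 in HE, 1.37 (1.21 to 1.54) in EHT, 0.466 in IAHC and 0.0142 in yolk sac cells, 2.93-fold (2.05 to 4.33) over IAHC and the only one of 8 stem surface genes past the fold (median 0.04). Summed over whole lists, signalling genes were at 11.5 (11 to 11.97) in EHT and 18.2 (17.2 to 19.2) in IAHC, and granule genes at 2.19 (1.98 to 2.41) and 3.03 (2.64 to 3.45). The blood transcription factor list summed to 14.5 (14.0 to 15.1) in EHT and 11.6 (10.9 to 12.4) in IAHC.

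The remaining lists had few genes past 2-fold against IAHC. Ribosome biogenesis had 0 of 17 past the fold (median -0.40), glycolysis 0 of 9 (-0.12), DNA replication 0 of 17 (-0.21), the cyclin D list 0 of 3 (0.31) and the interferon-induced transmembrane genes 0 of 3 (0.21). Below 0 were 14 of 17 ribosome biogenesis, 13 of 17 DNA replication and 10 of 11 G2 and mitosis genes. Their lists summed in EHT and IAHC to 31.4 and 34.6 (33.3 to 36.0), 16.5 and 17.9 (17.0 to 18.9), and 9.64 and 12.5 (11.7 to 13.4). Among 11 genes of G2 and mitosis the mitotic motor Kif11 was lower (median -0.38), among 16 actin genes Pfn1 and Vim were higher (0.13), among 11 fetal genes Mest was higher (0.15), and of 3 immediate early genes Jund was higher (-0.40). Pfn1, profilin, followed the strain split, at 6.72 in non-HE, 8.21 in HE, 9.81 (9.37 to 10.3) in EHT, 1.77 in IAHC and 1.21 in yolk sac cells. Several of the largest ratios against IAHC had the same order, with every ICR population on one side of both C57BL/6 populations. Trp53 was at 0.488, 0.888, 1.37, 0.205 and 0.177 in non-HE, HE, EHT, IAHC and yolk sac cells, the RNA-binding Atxn2l at 0.512, 0.520, 0.586, 0.0274 and 0.0426, and Ost4 of N-glycosylation at 0.791, 0.827, 0.869, 0.0959 and 0.0638. On the lower side stood Scand1 at 0.209, 0.194, 0.105, 0.726 and 0.674, the phosphatase Ptpn18 at 0.233, 0.306, 0.419, 1.49 and 1.23, Kif11 at 0.302, 0.194, 0.230, 1.03 and 1.26 and Aldh2 at 0.116, 0.133, 0.152, 0.548 and 0.383. Hspa1a, a heat shock gene that handling can induce, was at 0.209, 0, 0.0524, 0.575 and 0.0142, and all its EHT transcripts were on p24. The predicted genes Gm10548 and Gm1821 (higher) and Gm12191, Gm6251 and Gm6548 (lower) also ranked among the largest ratios, but near-identical copies can share reads with their parent genes, so these are uncertain. The Riken clone A630089N07Rik was at 7.30, 1.74, 0.911, 0.110 and 0.227, and at 0.487 and 2.51 on the HE plates p20 and p21.

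Genes at least 2-fold above every other population were rare in EHT cells. Of the 1254 genes at 0.5 or more transcripts per cell in EHT, 278 (22.2%) were highest there at any ratio. Among these, 5 (0.399% of the 1254) were at least 2-fold above each other population. Of genes at 0.5 or more in every other population, none was 2-fold below each of them in EHT. That requirement leaves out genes that were low in any other population. The count past 2-fold above each other population was 66 in non-HE, 2 in HE, 6 in IAHC and 47 in yolk sac cells. HE, EHT and IAHC cells thus had few such genes. Mycn stood out, 3.89-fold over the next population with the pseudocount of 0.1, and was the only 1 of the 5 to keep the fold on every plate. The count of 5 was 1 with a pseudocount of 0.5, 3 without p10, 13 without p12 and 8 without the top cell of each gene. Of the others, 3 are given here: Isg20l2, a nuclear exonuclease (0.209, 0.214, 0.571, 0.151 and 0.156 in non-HE, HE, EHT, IAHC and yolk sac cells), Ogdh of the citric acid cycle (1.47, 1.24, 3.16, 0.548 and 0.851) and the prolyl isomerase Fkbp3 (0.186, 0.194, 0.503, 0.137 and 0.128), each barely over the fold. The next widest set, genes past 2-fold against both HE and IAHC whatever the other populations held, had 13 members higher in EHT, among them Cxcr2, Gm10548, Kif3a, Mpv17l, Nip7, Pcbp2, Rin1 and Slfn5, and 1 lower, the carboxypeptidase Prcp at 0.372 in EHT, 0.990 in HE and 1.16 in IAHC. Several of these also differed between the HE plates, as Nip7 of ribosome biogenesis did at 0.946 and 2.56 on p20 and p21.

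Farther off, EHT cells were past 2-fold from non-HE cells at 508 of 1676 genes (30.3%; 216 or 12.9% higher and 292 or 17.4% lower) and from yolk sac progenitors at 474 of 1679 (28.2%; 216 or 12.9% higher and 258 or 15.4% lower). Against non-HE cells 18 of 23 endothelial genes were lower and 0 higher (median -1.51 against 0.14 over all genes). Against yolk sac cells 14 of 15 endothelial genes were higher (2.92 against -0.23). Hoxa9, a factor of definitive blood precursors, was at 0.302 in non-HE, 0.541 in HE, 0.613 (0.507 to 0.734) in EHT, 0.329 in IAHC and 0.0213 in yolk sac cells, so EHT cells were within 2-fold of HE and IAHC and far above the yolk sac. Gfi1 and Ifitm1 were also lower in the yolk sac, at 0.0213 and 0.319 in yolk sac cells against 0.874 and 1.88 in EHT.

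Where along the path from HE to IAHC the EHT cells lay was read gene by gene, as the share of the log2 step between HE and IAHC already made in EHT. For 286 genes at least 2-fold higher in IAHC than in HE, here called gains, the EHT cells had made a median of 47.2% of the step (quartiles 31.7 to 65.1%). For 281 genes lower in IAHC, the losses, the median was 58.4% (quartiles 41.8 to 72.2%). By plate the medians were 49.2, 50.7 and 43.7% for gains and 56.9, 62.9 and 57.7% for losses on p24, p10 and p12. The step from HE to IAHC is also one from ICR to C57BL/6, and some genes that split by strain lay near or beyond HE, as Trp53 at -33.7%, Scand1 at -35.0%, Pfn1 at -11.8% and Kif11 at 8.71%. The medians mix such genes with the others. Since the same HE and IAHC cells define the step and the ends, a position is a description of these samples. Of the gains, 196 (68.5%) lay between 25 and 75%, 11 beyond the IAHC level and 5 on the far side of HE. Of the losses, 183 (65.1%) lay between 25 and 75%, 8 beyond the IAHC level and 19 on the far side of HE.

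Positions by gene group rest on few genes each, and their ranges overlap. Blood transcription factors had a median of 87.8% over 4 of 26 genes, from Nfe2 at 64.7% through Myb at 85.9% and Sfpi1 at 89.8% to Runx1 at 121%. Signalling genes had a median of 62.9% over 7 of 30 genes, Gpr56 among them, from Laptm5, a lysosomal protein, at 38.0% to Ptpn6 at 93.5%. Ribosome biogenesis lay at 61.7% over 11 genes, DNA replication at 57.2% over 5 and myeloid granule genes at 61.5% over 3. Among the losses, matrix genes were at 72.2% over 13, the list of caveolae, flow and hypoxia at 72.2% over 5 and endothelial genes at 70.6% over 18, while the arterial genes, despite the largest ratios against HE, were at 61.0% over 13. BMP and Id genes lay at 62.3% over 4, actin genes at 51.7% over 4 and immediate early genes at 34.4% over 3. Vwf, the von Willebrand factor, had made 85.0% of its step and Sox18 21.8%, the ends of the endothelial range. Sox17 was at 70.6%. A position for a gene with few IAHC transcripts depends on the pseudocount.

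**Figure D3:**
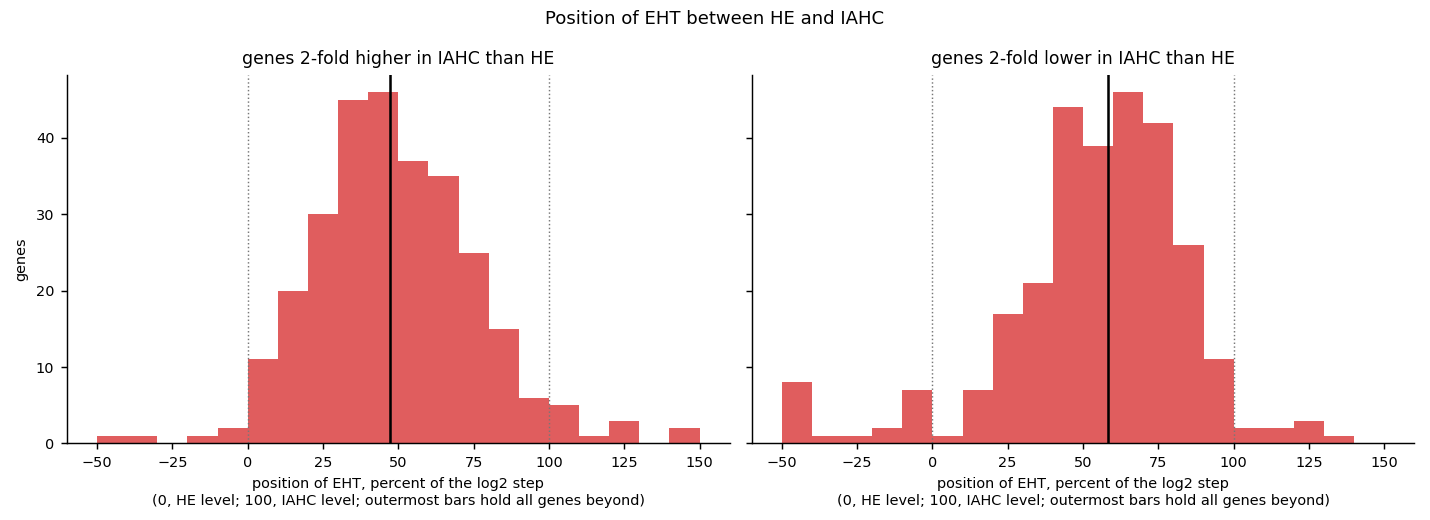
Number of genes by the position of EHT, in percent of the log2 step from HE (0) to IAHC (100), for genes at least 2-fold higher (left) and lower (right) in IAHC than in HE; black lines mark the medians, and the outermost bars hold all genes beyond them. The medians are 47.2% for 286 gains and 58.4% for 281 losses.

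The middle position of the population was not the position of each cell. For every cell the transcripts of the 27 endothelial genes and of the 56 haematopoietic transcription factor and signalling genes were summed. The endothelial sum had a median of 15 in EHT cells (quartiles 9 to 24, range 2 to 78), 49 in HE, 67 in non-HE, 12 in IAHC and 1 in yolk sac cells. The haematopoietic sum had a median of 26 in EHT (quartiles 21 to 31, range 9 to 50), 13 in HE, 9 in non-HE, 29 in IAHC and 30 in yolk sac cells. EHT cells spread over nearly the whole range of endothelial content between the neighbouring populations, with a variance over mean of 10.9, 6.80 and 10.4 on p24, p10 and p12, against 4.14 in IAHC and 5.14 and 6.88 on the HE plates p20 and p21, so that p10 was no wider than p21. The median was 15 on each of the 3 plates. Of the 191 cells, 146 (76.4%, 69.8 to 82.3%) were at or below the 90th percentile of IAHC cells, 24 transcripts, and 38 (19.9%, 14.5 to 26.3%) at or above the 10th percentile of HE cells, 28.7, leaving 7 between. By plate this HE-level share was 13 of 64 cells on p24, 6 of 40 on p10 and 19 of 87 on p12. No clear gap parted these cells from the rest, so the share depends on where the line is drawn.

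Blood transcripts outnumbered endothelial ones in 136 of the 191 EHT cells (71.2%, 64.2 to 77.5%), in 3 of 98 HE cells and in 66 of 73 IAHC cells. On p24, p10 and p12 this held for 48 of 64, 27 of 40 and 61 of 87 EHT cells. The haematopoietic sum exceeded the 90th percentile of HE, 21 transcripts, in 135 EHT cells (70.7%). Within each plate the endothelial and haematopoietic sums ran against each other, with Pearson r of -0.42, -0.24 and -0.57 over 64, 40 and 87 cells, and did so in HE and IAHC cells at -0.31 and -0.29. All cells share the fixed total of 3000, so a rise in any sum takes from the rest, and such r values are descriptions. For the signalling genes alone r was negative on each plate (-0.40, -0.56 and -0.54), and for the transcription factors it was weaker and of mixed sign (-0.25, 0.19 and -0.39). Arterial genes, which share no more than Sox17 with the endothelial list and were summed without it, went with the endothelial sum at r 0.86, 0.74 and 0.86 and matrix genes at 0.82, 0.71 and 0.83. Ribosome biogenesis went the opposite way at -0.66, -0.55 and -0.57 and glycolysis at -0.55, -0.42 and -0.54. The r of G2 and mitosis genes, -0.24, 0.20 and -0.19, changed sign between plates. The same signs were found within HE and IAHC cells, with r of 0.72 and 0.56 for arterial, 0.69 and 0.80 for matrix, -0.48 and -0.40 for ribosome biogenesis and -0.32 and -0.30 for glycolysis genes, so these relations are not particular to EHT cells.

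**Figure D4:**
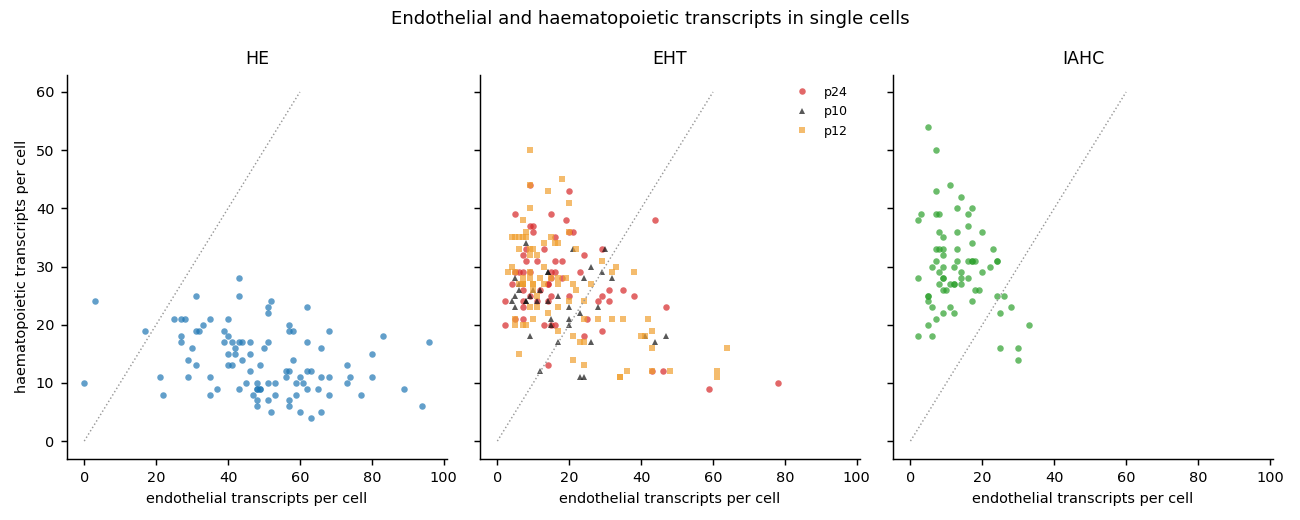
Each point is a cell, placed by its summed transcripts of 27 endothelial genes (horizontal) and of 56 haematopoietic genes (vertical), in HE, EHT and IAHC; the EHT plates differ by symbol and the dotted line marks equal sums. EHT cells reach from the IAHC range up to 78 endothelial transcripts, and 136 of 191 lie on the haematopoietic side of the line.

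To see which genes went with that range, EHT cells were parted within each plate by tertile of the endothelial sum, giving 66 low, 59 middle and 66 high cells. A sum near a border decides the class by chance counts, and 35 cells lay within 1 transcript of a border. Of 1545 genes outside the endothelial list, 108 were past 2-fold higher in the high tertile and 58 lower (10.7%), of which 105 and 57 had the same sign on each plate, with a median log2 ratio of -0.09. All 9 arterial and Notch genes measured were higher in the high tertile, summing to 1.27, 2.37 and 11.9 transcripts per cell in the low, middle and high tertiles. Gja4 was at 0.0152, 0.0678 and 1.91 and Gja5 at 0.0455, 0.153 and 1.38, the latter 30.3-fold (10.1 to 150) higher in the high tertile, and the low tertile held 1 Gja4 transcript in all. Both were nearly absent from the middle tertile, so the arterial connexins of EHT cells sat in the cells with the most endothelial transcripts. Mest, an imprinted gene, was the same, at 0.0152, 0.119 and 2.38. Procr was graded, at 0.364, 1.31 and 2.42, as were the stem cell and endothelial factor Gata2 (0.364, 0.559 and 0.985) and the ephrin Efnb2 (0.0455, 0.186 and 0.924), while the factor Mecom was higher in the high tertile only (0.348, 0.322 and 1.03). Matrix genes had 8 of 9 higher and the BMP and Id list 3 of 4, and the sums of these lists were 6.11, 11.6 and 23.1 and 1.5, 2.48 and 5.76 in the low, middle and high tertiles.

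Some genes went in the opposite direction, of which examples are given. Rac2, a GTPase of blood cells, was at 0.652, 0.237 and 0.0606 in the low, middle and high tertiles, Ifitm1 at 3.14, 1.78 and 0.727 (4.31-fold, 3.14 to 6.03 higher in the low tertile), Coro1a at 1.38, 1.08 and 0.576, Sfpi1 at 0.894, 0.797 and 0.394 and the surface genes Ly6e and Cd47 at 0.682, 0.610 and 0.182 and 1.24, 1.14 and 0.485. Phgdh was at 1.39, 0.847 and 0.545, Nlrp1a at 2.79, 2.03 and 1.06, Car2, a carbonic anhydrase, at 0.697, 0.441 and 0.227 and Dlk1, an imprinted ligand, at 0.773, 0.169 and 0.0909. The myeloid granule list summed to 2.85, 2.27 and 1.46 and the macrophage list to 1.64, 1.07 and 0.5 in the same order, the latter higher in the low than in the high tertile on every plate. Most list members did not pass 2-fold here: 2 of 8 signalling genes and 1 of 17 transcription factors were lower in the high tertile, 1 of the factors was higher, and 0 of 17 ribosome biogenesis genes and 0 of 8 G2 and mitosis genes passed. Several markers hardly followed the endothelial content. Runx1 was at 0.712, 0.814 and 0.682, Gpr56 at 3.21, 3.31 and 2.64, Kit at 1.35, 1.41 and 1.12 and Gfi1 at 0.667, 0.915 and 1.05, the last highest where endothelial transcripts were highest. Mycn was at 1.74, 1.75 and 1.09, present in the low and middle tertiles alike, and Myb peaked in the middle tertile at 0.758, 1.22 and 0.455. Within EHT cells, then, Ifitm1, Coro1a and Rac2 were highest where endothelial transcripts were fewest, while Runx1 and Gpr56 were within 2-fold across the tertiles. Kit was too, but the gate required it on all these cells.

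**Figure D5:**
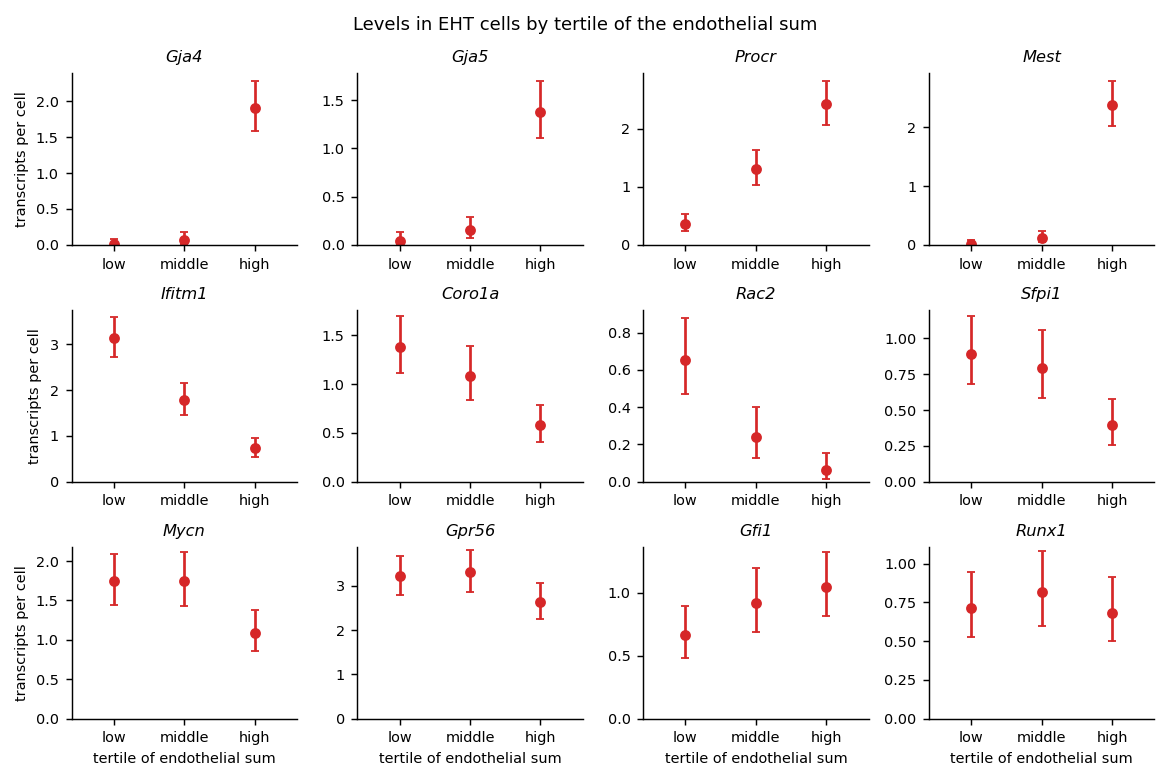
Transcripts per cell of 12 genes in EHT cells of the low, middle and high tertile of the endothelial sum (66, 59 and 66 cells, set within each plate), with exact 95% counting intervals. Gja4 goes from 0.0152 to 1.91 and Ifitm1 from 3.14 to 0.727, while Runx1 stays between 0.682 and 0.814.

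Pairs of genes in the same cell varied. Gja5 was detected in 13 of 91 EHT cells with Myb (14.3%, 7.83 to 23.2%) and 31 of 100 without it (31.0%, 22.1 to 41.0%), and in 15 of 106 cells with Ifitm1 (14.2%, 8.14 to 22.3%) against 29 of 85 without (34.1%, 24.2 to 45.2%). Gja4 was in 16 of 96 cells with Ptpn6 (16.7%, 9.84 to 25.6%) and 34 of 95 without (35.8%, 26.2 to 46.3%). The lower share in cells with the blood gene was found on each plate for all 3 pairs. The pairs were picked after values were seen and the intervals cover counting error only, so no test is drawn from them. Gja5 was in 20.1% of cells with Gpr56 (14.4 to 26.9%) and in 9 of 17 without (52.9%, 27.8 to 77.02%). On p24 and p12 the shares were 23.2 and 17.7% with Gpr56 and 62.5 and 50% without it, while on p10 too few cells lacked Gpr56 to compare. Co-detection was still frequent enough that arterial and blood transcripts shared cells. Gja5 was in 27.1% of cells with Gfi1 (18.5 to 37.1%) and 18.9% without (11.6 to 28.3%), higher with Gfi1 on each plate, and in 20.1% of cells with Mycn (13.7 to 28.0%) and 29.8% without (18.4 to 43.4%), lower with Mycn on p12 alone. Ifitm1 was in 55.2% of cells with Mycn and 56.1% without, but the plates went opposite ways, with 65.5 and 36.4% on p10 and the larger share without Mycn on p24 and p12. At levels near 1 transcript per cell a gene not seen is often a gene missed, which blurs every such pair.

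Most genes varied between EHT cells little more than counting predicts. Of 983 genes at 0.5 or more on every plate, the median variance over mean was 1.11 (1 is counting alone), 724 (73.7%) were under 1.5 on each plate and 22 (2.24%) were at 2 or more on each. The largest values by the lowest of the 3 plates were those of Kif3a, H19, Igf2, Gja4, Ifitm1, Ogdh, Fn1, Cxcr2, Id3 and Tmem69. Ifitm1 led the blood genes, at 6.84, 3.33 and 3.50 on p24, p10 and p12, with up to 22 transcripts in 1 cell and none in 85 of 191. Gja4 (3.69, 4.31 and 3.76), Id3 (3.35, 3.66 and 2.65) and Fn1 (2.85, 3.30 and 3.01) are members of the arterial, BMP and matrix lists, while Kif3a, Ogdh, Cxcr2 and Tmem69 belong to no list. The imprinted pair H19 and Igf2 were at 15.5 and 19.2 per EHT cell, with variance over mean of 5.11, 4.95 and 4.24 and 5.55, 3.84 and 4.66. Kif3a, a kinesin of cilia, was extreme at 13.6, 8.50 and 4.97: it was found in 85 of the 191 (44.5%) EHT cells and reached 26 transcripts in 1. Myb (1.21, 1.44 and 1.61), Mycn (1.34, 1.39 and 1.65), Gpr56 (1.59, 1.13 and 1.35) and Ptpn6 (0.985, 1.41 and 1.22) were nearer to 1. For the same relative spread between cells, variance over mean is larger at higher levels. It therefore does not rank genes or lists of unlike level by spread, and values near 1 do not show that genes at low levels were uniform. Summed over lists, the variance over mean on p24, p10 and p12 was 8.99, 6.39 and 9.80 for arterial genes, 9.12, 6.44 and 7.48 for matrix genes and 8.19, 8.66 and 9.75 for G2 and mitosis genes, against 1.74, 1.28 and 1.399 for blood transcription factors and 1.90, 1.37 and 2.79 for signalling genes.

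The 3 plates differed at few genes. Against the other EHT plates together, p24 had 7 of 1438 genes past 2-fold (0.487%), p10 had 32 of 1477 (2.17%) and p12 had 19 of 1418 (1.34%). Between the plates of the other populations the share was 5.75% of 1531 genes in HE, 15.3% of 1668 in non-HE and 0.267% of 1497 in yolk sac cells. These set 1 plate against 1 other, with 37 and 61, 28 and 15, and 65 and 76 cells in that order. Fewer cells bring more counting error, so the shares cannot be compared directly with those of the EHT plates. On p24, 7 genes were higher and 0 lower, with the largest ratios in Gm12504, Slc23a1, Atpaf2, Tapbpl and Mir703. Of these, Slc23a1, an ascorbate transporter, was at 1.5, 0.675 and 0.0690 on p24, p10 and p12 and Mir703, a microRNA locus, at 2.06, 1.63 and 0.563. On p10 the largest ratios were in Actc1, a muscle actin, and Rhox8, but 18 of 25 Actc1 and 46 of 58 Rhox8 transcripts of that plate lay in 1 cell each (72.0 and 79.3%), and Grk4 had 46.9% of its transcripts in 1 cell. Rasl2-9 was higher there and Atrx, Mest, Ppp1cb, Vegfc and Slc6a6 were lower, Mest being at 1.28, 0.275 and 0.828 and the arterial Vegfc at 0.609, 0.175 and 0.644. On p12, Kat6a, an acetyltransferase, alone was higher, at 0.141, 0.300 and 0.506, and 18 genes were lower. Some genes of identity were within 2-fold between plates: Gja5 was at 0.641, 0.400 and 0.529, Mycn at 1.47, 1.48 and 1.58 and Ptpn6 at 0.766, 0.700 and 0.736. Among the blood genes Ifitm1 was highest on p24, at 2.44, 1.75 and 1.54, and Myb lowest on p10, at 0.953, 0.5 and 0.816. The day in the column names and the plate cannot be told apart, with p24 the only EHT plate under E10.5.

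Genes of other cell types were at low levels. The authors filtered out IAHC cells by transcripts of non-IAHC genes, which can lower the IAHC values of such lists. In transcripts per cell, the macrophage list summed to 0.0930 in non-HE, 0.347 in HE, 1.07 (0.927 to 1.23) in EHT, 1.55 in IAHC and 1.20 in yolk sac cells, with HE at 0.0270 on p20 and 0.541 on p21. It was led in EHT by Lyz1, with Ctss, C1qa and Emr1 at 0, and 3 of 191 cells held 4 or more of its 15 genes. At least 1 of them was seen in 96 of 191 EHT cells (50.3%), 12 of 98 HE cells (12.2%) and 53 of 73 IAHC cells (72.6%). No gene of the list reached the level measured against HE or IAHC. The erythroid list summed to 0.209 in non-HE, 0.827 in HE, 0.550 (0.450 to 0.666) in EHT, 1.90 in IAHC and 3.06 in yolk sac cells, with HE at 0.216 on p20 and 1.20 on p21, so that EHT cells lay between the HE plates. It was led in EHT by Car2, with Hbb-b1, Hba-x, Hba-a2 and Gata1 at 0, and 0 of its genes were measured against HE and 1 against IAHC (log2 ratio -3.14). Embryonic globin Hbb-y was at 0.0157 in EHT against 0.918 in IAHC and 0.306 in HE, 58.4-fold (19.2 to 291) lower than IAHC. This globin was thus as low in EHT as in non-HE cells (0.0233). Megakaryocyte genes summed to 0.744 in non-HE, 0.694 in HE, 1.51 (1.34 to 1.70) in EHT, 1.78 in IAHC and 3.39 in yolk sac cells, with Gp1bb, Gp5 and Treml1 at 0 in EHT and 0 of 1 gene past 2-fold against HE or 0 of 2 against IAHC (medians 0.51 and -0.01). Myeloid granule genes were at 1.30 in non-HE, 1.38 in HE, 2.19 (1.98 to 2.41) in EHT, 3.03 in IAHC and 4.723 in yolk sac cells, with Elane, Ctsg, Ms4a3, Igll1 and Cebpa at 0 and 1 of 2, Srgn, higher than in HE (median 0.75). Mesenchyme genes were at 3.14 in non-HE, 3.66 in HE, 2.53 (2.31 to 2.77) in EHT, 1.88 in IAHC and 0.262 in yolk sac cells, led by Cdkn1c, with Crabp1, Pdgfrb and Col1a1 at 0 and 0 of 1 gene past the fold against HE or IAHC (median -0.34 and 0.35). The macrophage sum was 1.20, 0.875 and 1.06 on p24, p10 and p12, the erythroid sum 0.516, 0.525 and 0.586 and the mesenchyme sum 2.38, 2.68 and 2.59. Their part in the differences above was not tested, beyond leaving out the 3 cells. Xist alone was seen in 46 EHT cells and a gene of the Y chromosome alone in 37, with 1 cell holding both and 107 neither, so embryos of both sexes contributed, and 0 of 5 sex genes reached the level measured against HE or IAHC.

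Every comparison rests on 1 deposited sample per population, so counting intervals do not hold the variation between embryos or sorts, and no gene was tested. A fixed total per cell removes differences in RNA content, and 3000 transcripts leave most regulators near or under 1 per cell. Strain and reporter alleles separate EHT from IAHC and yolk sac cells. Gpr56 was used to keep the IAHC cells, and the gate fixed Cdh5, Gfi1, Gfi1b and Kit, so differences between populations in these genes carry no finding. Where these genes enter a list count or are followed within EHT cells, the values are descriptions. The tertiles come from the same counts that they describe.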

How the data were processed

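The measurements are single-cell CEL-Seq counts of 5 sorted populations at embryonic day 10, with 1 deposited sample each. Per the submitters' processing notes, reads were aligned to mm10 with BWA 0.6.2-r126. The authors counted unique molecular identifiers, turned them into an estimated count of transcripts and down-sampled each cell. In the deposited table every value was a whole number of transcripts plus 0.1. The 0.1 was subtracted, which left exactly 3000 transcripts in each of the 546 cells, so no further scaling was done. The study's methods state another down-sampling depth than the table holds. EHT cells had a median of 1837 genes (1622 to 2011), with 1830, 1778 and 1876 on p24, p10 and p12, and no profile occurred more than once. The table had 19322 genes, 12312 of them with a transcript in EHT.

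Cells were grouped by column name. A gene was measured in a comparison if it had at least 0.5 transcripts per cell in 1 of the 2 populations, and past 2-fold if the ratio of means with a pseudocount of 0.1 reached 2. Printed folds are plain ratios of summed transcripts per cell, with an exact interval from the binomial split of the counts. A population with 0 counts was given a floor of 3 transcripts over the group. Sums have exact Poisson and shares Clopper-Pearson 95% intervals. Position is the share of the log2 step from HE to IAHC. A cell's endothelial and haematopoietic sums are its transcripts of 27 and 56 list genes, and tertiles were set within each plate. With 1 sample per population, no p-value, model or set test was computed, and cells were not used as replicates.

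Named genes are, in each direction against HE and against IAHC, the 12 with the largest ratios among genes past 2-fold in the pooled cells, on each EHT plate and against each plate of the other population; genes highest in EHT on every plate; the 10 with the largest lowest-plate variance over mean; the 5 per plate and direction with the largest ratio; the 6 markers; and members of the 24 lists as examples; not every gene picked in this way is printed. Outside that rule, Hlf, Gfi1b, Hoxa9 and Dlk1, the gene pairs, the genes past 2-fold against both HE and IAHC, and those highest in EHT without holding on every plate were picked out after values were seen. The members and lists were chosen with earlier results of these data known. Calls were tested on simulated data with known folds and counting error only. The simulated folds and levels lay above the limits used for the calls, so calls near those limits were not tested. Alternatives were a pseudocount of 0.5, a minimum level of 0.2, leaving out each EHT plate, the top cell of each gene or cells with macrophage genes, and the sums without the sort genes. Python 3.11.15, numpy 2.4.6, pandas 2.3.3, scipy 1.17.1 and matplotlib 3.10.9 were used.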

Additional observations from a re-analysis of the deposited data

How the results depend on the processing

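Counts kept within 1.5 times of their main value and positions within 1 SD between plates in most alternatives. Reversal of direction was not checked. A pseudocount of 0.5 moved the counts most: genes higher in EHT than HE went from 66 to 19 and lower from 157 to 46, higher than IAHC from 98 to 29 and lower from 63 to 11, and genes 2-fold above every other population in EHT from 5 to 1, since a larger pseudocount shrinks every ratio of low counts. With it the median position of losses was 67.4% in place of 58.4%, which was not tested further. A minimum level of 0.2 let in more genes, with 140 higher and 282 lower than HE and 233 higher than IAHC. The count of genes 2-fold above every other population in EHT was unsteady: 3 without p10, 13 without p12 and 8 without the top cell of each gene, and the cause was not tested. Without the top cell of each gene the median position of gains was 51.2% in place of 47.2%, which was not tested further. Leaving out p24, p10 or p12 gave 65, 56 and 91 genes higher and 163, 159 and 164 lower than HE. The haematopoietic share of the summed list transcripts had a median of 65.8% per EHT cell and 67.5% without the sort genes. Chosen after seeing the data, leaving out the top cell of each gene on each side gave 6 genes past 2-fold on p24 (7), 26 on p10 (32) and 21 on p12 (19). No paired analysis was run, because the labels used here do not match cells of different populations by embryo. A gene not seen in a population of 191 cells can be at up to the counting limit of its floor of 3 transcripts, 0.0157 per cell, without being told from 0.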

Other observations

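The imprinted pair H19 and Igf2, picked out after values were seen, was highest in non-HE and lowest in yolk sac cells. H19 was at 50.4, 27.3, 15.5, 15.2 and 1.33 transcripts per cell in non-HE, HE, EHT, IAHC and yolk sac cells, and Igf2 at 50.3, 28.3, 19.2, 11.6 and 1.08, so EHT cells held H19 at the IAHC level and Igf2 between HE and IAHC. The summed list of the fetal programme and DNA methylation, of whose 46.7 transcripts per EHT cell these 2 genes hold most, had an r with the endothelial sum over the EHT cells of p24, p10 and p12 of 0.71, 0.56 and 0.68, and was at 35.4, 44.9 and 59.6 in the low, middle and high tertiles. Gene by gene, 2 of its 11 measured genes were past 2-fold higher in the high tertile and 1 lower, with a median log2 ratio of -0.14.

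Single cells carried some values. Of 4446 genes with at least 30 transcripts in EHT, 23 had over 20% of them in 2 cells, led by Actc1 (65.6%), Rhox8 (63.0%), Anxa2 (42.4%), Atp7a (36.4%), Fos, Grk4 and Meg3 (33.3% each). In the endothelial sum, 1 HE cell had 0 transcripts of the 27 genes. Xist was detected in 24.6% of EHT cells, in 13.3% of HE cells and in 0 of 43 non-HE cells, where a Y gene was seen in 24. The study's methods state pooling of AGMs for the staining used to sort IAHC cells.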
